A study of Xenopus laevis with 8 samples.

Results

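Tubulins, microtubule-binding proteins and the motors that walk on microtubules were followed in *Xenopus laevis* animal caps after the transcription factor EBF3 was switched on. The members were chosen by name. They are the 39 probes, of 21495 on the array, whose description names a tubulin, a microtubule-associated protein, a stathmin, a kinesin, a dynein or another protein of microtubules. No description on the array named tau, SCG10 or doublecortin. By what the proteins are known to do, 5 probes were put in a neuronal list and 34 in a general list.

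Each of 8 two-color arrays compared DEX-treated with untreated caps from 1 of 4 independent experiments. On the 4 active EBF3 arrays, the treated caps expressed hGR-XEBF3, a fusion of *Xenopus* EBF3 to the hormone-binding part of the human glucocorticoid receptor that the hormone dexamethasone (DEX) switches on. On the 4 DEX control arrays, the treated caps expressed hGR, the hormone-binding part alone. The untreated caps on both kinds of array expressed hGR-XEBF3 without hormone. All caps came from embryos injected at the one-cell stage with Noggin mRNA (0.2 ng), which neuralizes the tissue. The hGR-XEBF3 embryos received 1 ng and the hGR embryos 0.4 ng of the mRNA for their fusion or receptor part. Caps were cut at stage 9 and the treatment was 30 μM DEX for 4.5 hours. EBF3 was thus overexpressed from injected mRNA and not measured at its natural level.

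Microtubules are hollow polymers of alpha- and beta-tubulin. Gamma-tubulin complexes start them, microtubule-associated proteins stabilize them, and stathmins bind free tubulin dimers. Most kinesins carry cargo toward the plus end or act in the mitotic spindle, and dyneins move the other way. Young neurons build dense microtubule bundles in their axons and dendrites, and several family members, such as *tubb2b* (known in *Xenopus* as *n-tubulin*), *map2*, the neuronal stathmins and KIF1B, are expressed mainly or most strongly in neurons. Dividing cells need the spindle members instead.

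RNA of treated caps was labeled with Cy3 and RNA of untreated caps with Cy5 on every array, so a positive log2 ratio means a higher level with DEX. Dyes were not swapped, and a dye effect on a probe therefore has the same sign on all arrays. A probe was called on the arrays of a group when its mean log2 ratio differed from 0 with a Benjamini-Hochberg adjusted p under 0.05 in limma and the mean change was at least 2-fold. The same rule was applied to the difference between the groups, active EBF3 minus DEX control.

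The probe labeled *Xebf-3* was at 1.22, 2.25, 5.56 and 4.98 on the active EBF3 arrays of replicates 1 to 4, and from -0.79 to 0.90 on the DEX control arrays. In signal, the active EBF3 arrays read 170, 171, 218 and 195 in Cy3, against 73, 36, 4.6 and 6.2 in Cy5. The size of these ratios thus follows a Cy5 signal near background. On 4 of 4 DEX control arrays both channels held a floor value in place of a signal. The untreated caps carried the injected hGR-XEBF3 mRNA, yet the Cy5 signal of this probe was well above background on 0 of 4 arrays of each group. The probe thus gave no clear signal for the injected mRNA in the untreated caps. The *noggin* probe ran from 0.27 to 1.84 with active EBF3 and from -0.24 to 0.77 with the DEX control. Its Cy3 signal was well above background on 1 of 4 active EBF3 and 0 of 4 DEX control arrays. Its Cy5 signal was so on 0 of 4 arrays of each group, so these ratios also rest on signals near background. Replicates 1 and 2 were run on one array design, with 1 spot per probe, and replicates 3 and 4 on another, with 2 spots per probe, so array design is a batch that holds both groups. Of 6 neuronal marker probes, 5 were called higher with active EBF3 against untreated caps, as were 5 of 17 muscle probes (1 lower) and 2 of 2 probes of the blood and endothelium list, *SCL* and *lmo2*. Of all probes, 3.03% were called higher and 2.84% lower there. The muscle list holds skeletal and cardiac genes, and its higher probes include a clone described as cardiac troponin C. Another clone of that description was at -0.33 and was not called. No probe of the epidermis list (1 probe, *grainyhead-like-1*) or of the multiciliated cell list (3 probes) was called in any comparison. In whole caps, a change in the number of cells of a type and a change in the RNA of each cell cannot be told apart.

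With active EBF3 against untreated caps, 0 of 39 microtubule probes were called higher, and 3 (7.69%) were called lower. All 3 calls were members that build or tip the polymer: 2 beta-tubulins and the plus-end protein gene *mapre2*. Among all 21357 tested probes, the calls were 3.03% upward and 2.84% downward, or 5.87% in all. On the DEX control arrays, 0 members were called in either direction by limma, against 0% of all probes, and 2 members (5.13%) had an unadjusted p under 0.05, against 19.0% of all probes. The methods' t-test also called 0. The study's methods name the test and LOWESS-normalized intensities, and the unpaired form on log2 channel signals was chosen here. That form sets a change within arrays against the spread of signal between arrays. The median Cy3 signal ran from 28.1 to 291 over the DEX control arrays, so its 0 cannot decide whether DEX changed a member. The difference between the groups was called for 1 member, a beta-tubulin that was lower with active EBF3 (2.56% of the members, against 1.44% of all probes), and for 0 members in the other direction, against 2.42% of all probes. An unadjusted p under 0.05 for this difference was reached by 7 members (17.9%), against 13.5% of all probes. By the adjusted p alone, with no fold minimum, 2 members were higher and 4 were lower with active EBF3, against 4.01% and 4.4% of all probes, and 1 was higher and 1 lower in the difference between the groups, against 2.72% and 1.88% of all probes.

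All 39 members had a value on every array, and 27 were well above background in both channels on all 8. Another 4 were well above background in neither channel on any active EBF3 array. The median of the members' mean log2 ratios was 0.11 on the active EBF3 arrays and 0.05 on the DEX control arrays, against 0.08 and 0.09 for all probes. The median size of the change, regardless of sign, was 0.27 for the members and 0.28 for all probes on the active EBF3 arrays. Centering each array on its median would lower every mean on the active EBF3 and DEX control arrays by 0.10 and leave the differences between the groups as they were.

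**Figure D1:**
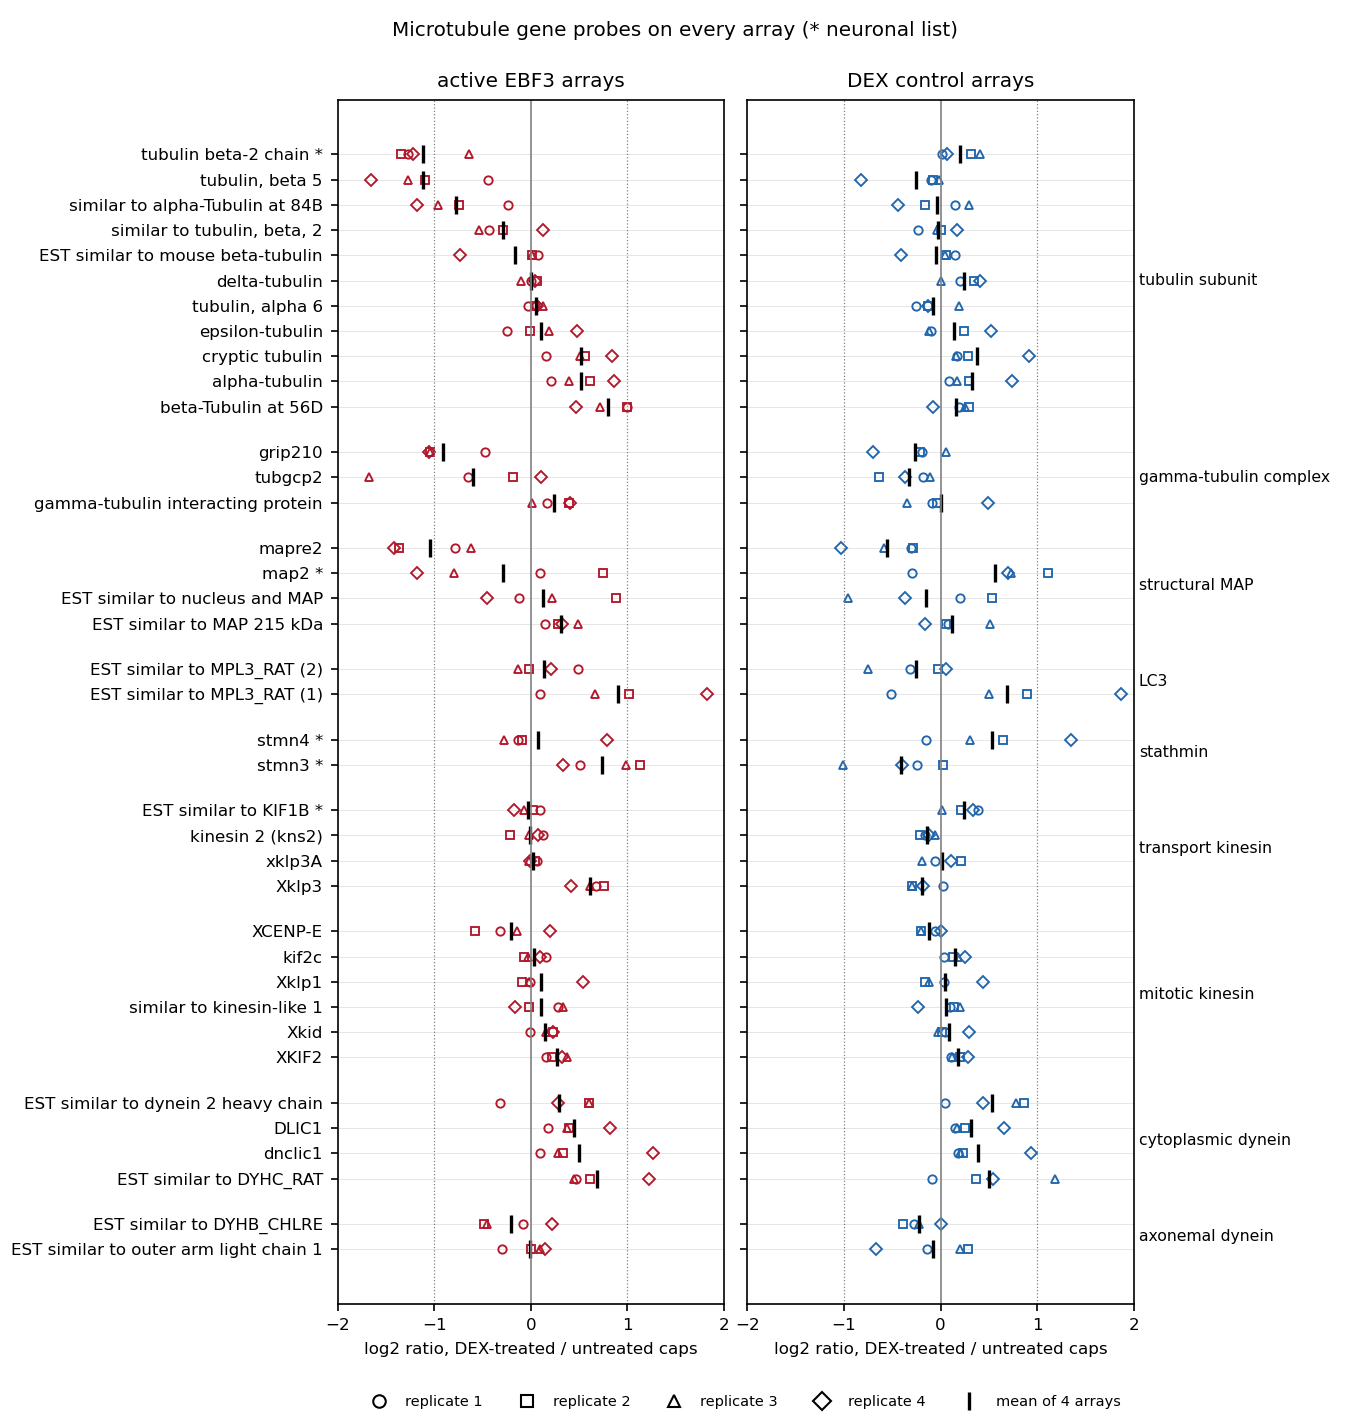
Log2 ratio of DEX-treated to untreated caps (horizontal axis) for 38 of the 39 member probes (rows, grouped by role), on the 4 active EBF3 arrays (left, red) and the 4 DEX control arrays (right, blue). Open symbols are arrays by replicate, black bars the mean of 4 arrays, dotted lines a 2-fold change, and asterisks the neuronal list. Tubulin beta-2 chain stands below 0 on 4 of 4 active EBF3 arrays and above 0 on 4 of 4 DEX control arrays, while the mitotic kinesins lie near 0 in both panels.

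The beta-tubulins gave the clearest result. The probe for tubulin beta-2 chain (MGC53436) was at -1.27, -1.34, -0.64 and -1.22 on the active EBF3 arrays of replicates 1 to 4, and at 0.02, 0.32, 0.40 and 0.06 on the DEX control arrays. Every active EBF3 array lay below every DEX control array. In signal, it read 1603, 1794, 163 and 143 in the DEX-treated caps of the active EBF3 arrays, against 3878, 4545, 255 and 332 in the untreated caps of the same arrays. On the DEX control arrays, it read 3778, 6029, 211 and 268 in the treated caps, against 3734, 4834, 160 and 257 in the untreated caps. The mean change was -1.12 ± 0.32 (SD, n = 4 arrays), a 2.17-fold fall, with an adjusted p of 0.0159 from limma. On the DEX control arrays, it averaged 0.20 ± 0.19 over 4 arrays (SD), with an adjusted p of 0.429 (limma). The difference between the groups was -1.32 with a 95% interval of -1.77 to -0.87, a 2.49-fold lower ratio with active EBF3 (adjusted p = 0.00622 from limma).

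The fall was present in both array designs. Active EBF3 minus DEX control was -1.48 in replicates 1 and 2 and -1.16 in replicates 3 and 4. With the replicate number as a block, the adjusted p of the difference was 0.00831 (limma). Without replicate 2 the adjusted p was 0.0854 on the active EBF3 arrays and 0.0848 for the difference, and without replicate 4 it was 0.0890 and 0.0540 (limma). With normexp background correction and loess the changes were -0.85 and -0.96, under 2-fold. The study's own annotation of the array names this clone tubulin beta 2B, the gene for which *n-tubulin* is another name in *Xenopus*, but the clone name was not among the names in the X. laevis v10.1 gene table. Which tubulin gene the probe reads was thus taken from the study's annotation alone. Tubulin genes are close in sequence, and cross-hybridization between them was not tested. In vivo, the paper reports ectopic *n-tubulin* after DEX switched on hGR-XEBF3 (data not shown), as with unmodified EBF3, which is the other direction. By its methods, such embryos were whole and received DEX from the gastrula to the neurula stage, unlike the Noggin caps here. The cause of the difference in direction was not tested.

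Tubulin, beta 5 (tubb5) was at -0.44, -1.10, -1.27 and -1.66 on the active EBF3 arrays, against -0.11, -0.08, -0.01 and -0.82 on the DEX control arrays. The lowest DEX control array, that of replicate 4, reached into the range of the active EBF3 arrays. This was a 2.17-fold fall, with a mean of -1.12 ± 0.51 over 4 arrays (SD) and an adjusted p of 0.0370 (limma). The call was lost without replicate 2, 3 or 4, with adjusted p of 0.130, 0.144 and 0.121 (limma). The difference between the groups was -0.86 with a 95% interval of -1.52 to -0.20, and it did not pass (adjusted p = 0.193 from limma). The gene table matched this name to *tubb.L* or *tubb4a.S*.

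Beta-Tubulin at 56D, a clone named after a fly gene and matched to *tubb4b.L*, went the other way. It was at 0.99, 1.00, 0.72 and 0.46 on the active EBF3 arrays, against 0.19, 0.29, 0.25 and -0.08 on the DEX control arrays, and the groups did not overlap. Its mean of 0.79 ± 0.25 (SD, n = 4) passed the adjusted p (0.0330 from limma) but, at 1.73-fold, not the fold minimum. The difference between the groups was 0.63 with a 95% interval of 0.23 to 1.03 and did not pass (adjusted p = 0.102 from limma). Over the leave-out fits its adjusted p ran from 0.0661 to 0.146 on the active EBF3 arrays and from 0.0985 to 0.391 for the difference (limma), and for the difference it was 0.0343 with the replicate as a block. Tubulin beta-2 chain was thus below 0 and beta-Tubulin at 56D above 0 on each of the 4 active EBF3 arrays. The 2 other beta-tubulin probes, both in the general list, did not pass. The clone similar to tubulin, beta, 2 (MGC53205) had a mean of -0.29 on the active EBF3 arrays, and the EST similar to mouse beta-tubulin -0.16. MGC53205 has a name close to that of tubulin beta-2 chain but a much smaller change. Whether the 2 clones stand for the same gene was not tested.

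Among the alpha-tubulins, the clone similar to alpha-Tubulin at 84B (MGC53359) was at -0.24, -0.74, -0.96 and -1.17 on the active EBF3 arrays, against 0.14, -0.16, 0.29 and -0.44 on the DEX control arrays. The groups overlapped, and its mean of -0.78 ± 0.40 on the active EBF3 arrays (SD, n = 4) had an adjusted p of 0.0646 (limma). The probe named alpha-tubulin, matched to *tubal3.1.L*, was at 0.21, 0.61, 0.40 and 0.86 on the active EBF3 arrays and at 0.09, 0.29, 0.17 and 0.74 on the DEX control arrays. These values run side by side in the same-numbered arrays, with the active EBF3 array the higher in each pair. The difference between the groups was 0.20 with a 95% interval of -0.28 to 0.67 (adjusted p = 0.838 from limma). The model behind this interval does not pair the arrays. Cryptic tubulin, a divergent subunit matched to *tubz1.L*, had a mean of 0.52 ± 0.28 on the active EBF3 arrays and 0.38 ± 0.36 on the DEX control arrays (SD, n = 4 each). Tubulin, alpha 6, delta-tubulin and epsilon-tubulin, the last pair being subunits of centrioles and basal bodies, had means from 0.00 to 0.11 with active EBF3.

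**Figure D2:**
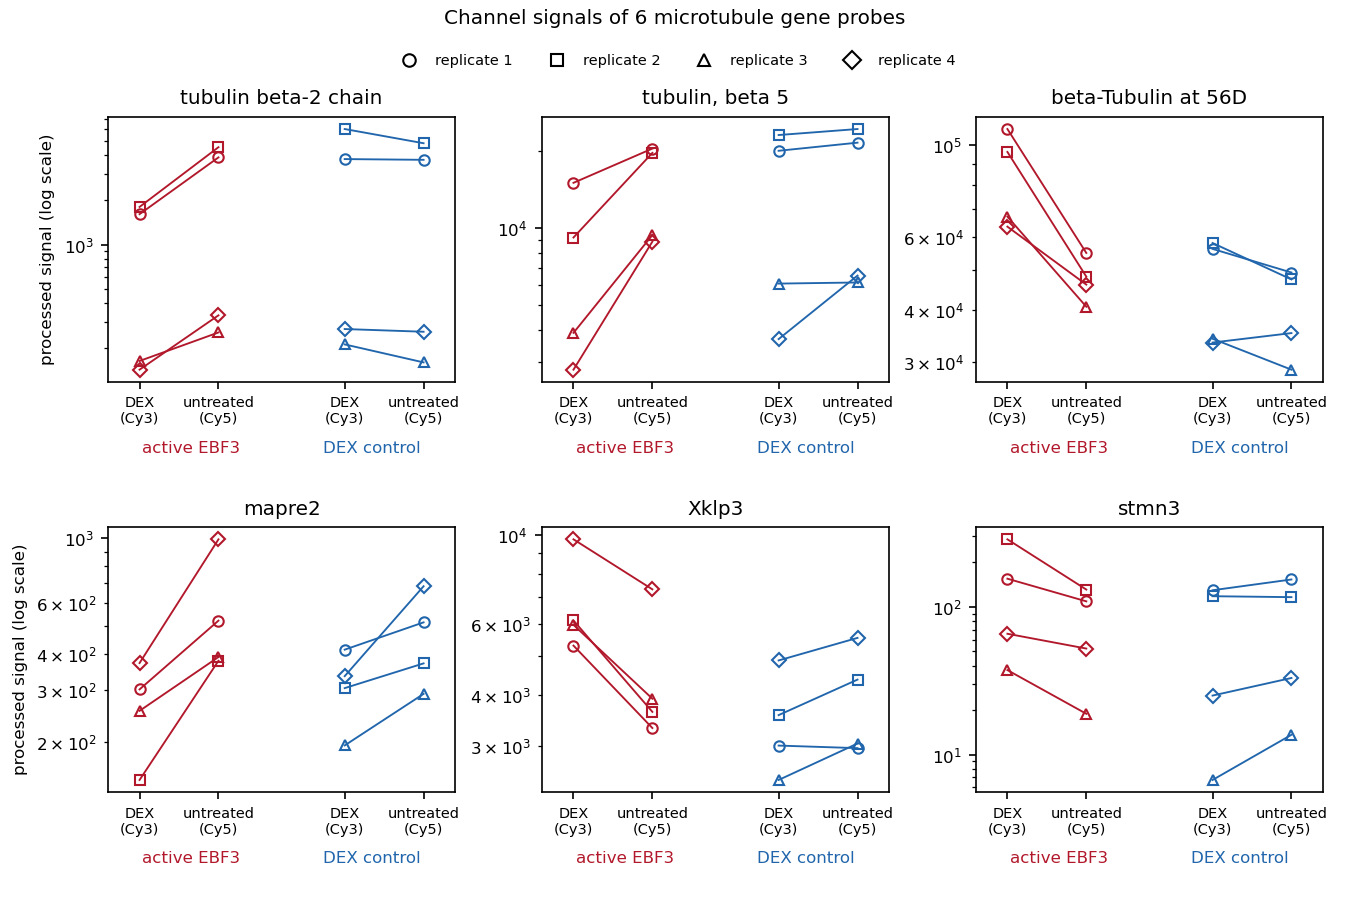
Processed signal (log scale) of the DEX-treated caps (Cy3) and the untreated caps (Cy5) for 6 member probes, with a line for each array, active EBF3 arrays in red on the left of each panel and DEX control arrays in blue on the right. Symbols are replicates. The lines of tubulin beta-2 chain drop toward the treated side on 4 of 4 active EBF3 arrays, and those of *Xklp3* and *stmn3* climb toward it. Signals of different probes cannot be set against each other.

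The gamma-tubulin complex, which nucleates microtubules at centrosomes, was represented by 3 probes. Its subunit gene *grip210*, matched to *tubgcp6.L*, was at -0.48, -1.04, -1.05 and -1.05 on the active EBF3 arrays, against -0.19, -0.21, 0.06 and -0.70 on the DEX control arrays. The mean of -0.90 ± 0.28 (SD, n = 4) passed the adjusted p (0.0256 from limma) and, at 1.87-fold, fell short of the fold minimum. The difference between the groups was -0.64 with a 95% interval of -1.13 to -0.15 (adjusted p = 0.189 from limma). The subunit gene *tubgcp2* spread widely, from -1.67 to 0.10 with active EBF3, gamma-tubulin interacting protein had a mean of 0.24, and neither of these passed.

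The third call on the active EBF3 arrays was *mapre2*, encoding a member of the EB family that binds growing plus ends. It was at -0.78, -1.36, -0.61 and -1.41 on the active EBF3 arrays, against -0.31, -0.28, -0.59 and -1.03 on the DEX control arrays. It was below 0 on 8 of 8 arrays, and the groups overlapped. It averaged -1.04 ± 0.40 with active EBF3 and -0.55 ± 0.34 with the DEX control (SD, n = 4 each), with adjusted p of 0.0285 and 0.192 (limma). The call on the active EBF3 arrays was lost without replicate 2, 3 or 4, with adjusted p of 0.123, 0.0586 and 0.113 (limma), and under normexp with loess, at -0.61. The difference between the groups was -0.49 with a 95% interval of -1.07 to 0.09 and did not pass (adjusted p = 0.490 from limma). A fall specific to active EBF3 was therefore not shown for *mapre2* or, by the same test, for tubulin, beta 5.

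The dendritic protein gene *map2* was measured poorly. Its Cy3 signal was well above background on 0 of 4 active EBF3 arrays and its Cy5 signal on 1 of 4. It was at 0.10, 0.75, -0.80 and -1.18 on the active EBF3 arrays, against -0.30, 1.11, 0.73 and 0.70 on the DEX control arrays. The active EBF3 arrays split by array design, with replicates 1 and 2 above 0 and replicates 3 and 4 below it. The 95% interval of the difference between the groups, -1.89 to 0.20, allows a fall of over 2-fold as well as no change. Probes for MAP215, a polymerase of plus ends, and for a nucleus and microtubule-associated protein had means of 0.31 and 0.13 on the active EBF3 arrays and did not pass.

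LC3, the light chain of MAP1A and MAP1B that also marks autophagosomes, was represented by 2 ESTs. The brighter EST was at 0.10, 1.02, 0.66 and 1.83 on the active EBF3 arrays and at -0.51, 0.90, 0.50 and 1.87 on the DEX control arrays. Its mean of 0.90 was the highest of all members on the active EBF3 arrays. The DEX control arrays reached the same height, and the difference between the groups was 0.21 with a 95% interval of -0.99 to 1.41 (adjusted p = 0.937 from limma).

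Stathmins sequester tubulin dimers, and stathmins 3 and 4 are found mainly in neurons. The *stmn3* probe was at 0.51, 1.13, 0.98 and 0.33 on the active EBF3 arrays, against -0.24, 0.02, -1.02 and -0.40 on the DEX control arrays. All active EBF3 arrays lay above all DEX control arrays. The mean was 0.74 ± 0.38 on the active EBF3 arrays (adjusted p = 0.0673 from limma) and -0.41 ± 0.44 on the DEX control arrays (SD, n = 4 each). The difference of 1.15, or 2.21-fold, had a 95% interval of 0.53 to 1.76 and an adjusted p of 0.0528 from limma, just over the threshold. It was 0.93 in replicates 1 and 2 and 1.36 in replicates 3 and 4. With array design as a block the adjusted p was 0.0441 and without replicate 3 it was 0.309 (limma), and with normexp background correction and loess in place of the processed signals the difference shrank to 0.23. The signal was low, and the Cy3 channel was well above background on 3 of 4 active EBF3 arrays and 1 of 4 DEX control arrays.

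For *stmn4*, the values were -0.14, -0.09, -0.28 and 0.79 on the active EBF3 arrays, against -0.15, 0.64, 0.31 and 1.34 on the DEX control arrays. The groups overlapped, and the difference was -0.47 with a 95% interval of -1.27 to 0.34 (adjusted p = 0.734 from limma). The 2 neuronal stathmins among the members thus lay on opposite sides of 0 in the comparison of the groups, and neither passed.

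**Figure D3:**
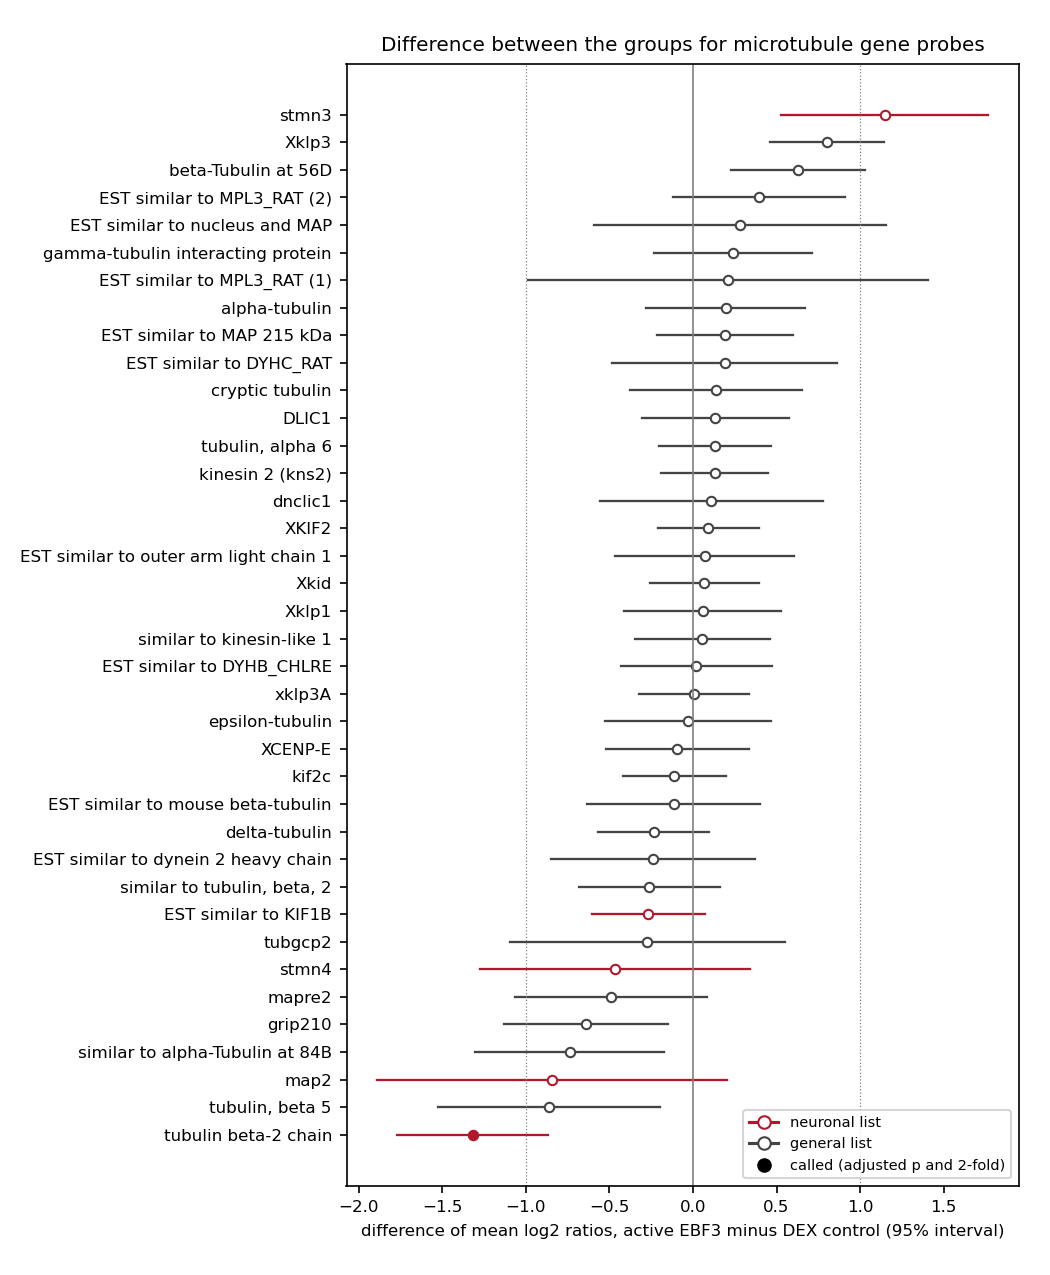
Difference of the mean log2 ratios, active EBF3 minus DEX control (horizontal axis), with its 95% interval for 38 of the 39 member probes (rows, ordered by the difference). Red marks the neuronal list, grey the general list, filled points a called difference and dotted lines a 2-fold difference. Tubulin beta-2 chain, at -1.32, is the 1 called difference. *stmn3* is plotted at 1.15, but under normexp with loess it was at 0.23, below *Xklp3* at 0.75 and beta-Tubulin at 56D at 0.59.

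Kinesin-2 is a heterotrimeric motor of cilia and of transport in cells and axons, and 2 members encode its motor subunits. The probe *Xklp3*, matched to *kif3b.S*, was at 0.68, 0.75, 0.61 and 0.41 on the active EBF3 arrays, against 0.02, -0.29, -0.30 and -0.19 on the DEX control arrays. The groups did not overlap and the replicates were close, with a mean of 0.61 ± 0.15 on the active EBF3 arrays and -0.19 ± 0.15 on the DEX control arrays (SD, n = 4 each). The adjusted p from limma was 0.0452 on the active EBF3 arrays and 0.0185 for the difference between the groups, which was 0.80, or 1.74-fold, with a 95% interval of 0.46 to 1.14. The change was below the fold minimum in both. Leaving out 1 replicate at a time gave adjusted p from 0.0826 to 0.194 on the active EBF3 arrays and up to 0.189 for the difference, where it stayed under the threshold without replicate 1 alone (limma). The difference was 0.85 in replicates 1 and 2 and 0.75 in replicates 3 and 4.

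Its partner subunit *xklp3A*, matched to *kif3a.L*, had a mean of 0.02 on the active EBF3 arrays and 0.01 on the DEX control arrays, and the 95% interval of the difference was -0.33 to 0.34. The EST similar to KIF1B, known in mouse to carry synaptic vesicle precursors and mitochondria, was at 0.09, 0.03, -0.07 and -0.17 on the active EBF3 arrays, against 0.39, 0.21, 0.02 and 0.33 on the DEX control arrays. The difference was -0.27 with a 95% interval of -0.60 to 0.07, which lay within 2-fold in both directions for these processed ratios. With normexp background correction and loess it was -0.07, so its size depended on the processing. Kinesin light chain (*kns2*) was also close to 0, with means of -0.01 on the active EBF3 arrays and -0.14 on the DEX control arrays.

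The 6 mitotic kinesins among the members had means close to 0 on both kinds of array. *Xklp1* and *Xkid* are chromokinesins, *kif2c* and *XKIF2* encode motors that depolymerize microtubule ends, *XCENP-E* a kinetochore motor, and the sixth probe is a clone similar to kinesin-like 1. All 6 were well above background in both channels on 8 of 8 arrays. Their means ran from -0.21 to 0.27 with active EBF3 and from -0.12 to 0.18 with the DEX control, and the differences between the groups from -0.11 to 0.09. None of the 6 had an unadjusted p under 0.05 in any of the comparisons. Outside the members, *kif15*, *kif20a*, *kif23* and *kifc1* had means of 0.05, 0.56, 0.39 and 0.10 with active EBF3. With the DEX control they were at -0.03, 0.29, 0.09 and 0.45. The means of *kif20a* rest on replicate 4, at 2.35 with active EBF3 and 1.54 with the DEX control. Its other arrays ran from -0.11 to 0.08 and from -0.26 to 0.01. The unadjusted p was 0.0303 for *kif23* with active EBF3 and 0.0118 for *kifc1* with the DEX control (limma), and none was called. Of 12 probes for cyclins A and B, *cdc2*, *pcna*, the MCM proteins and related genes of dividing cells, 0 were called higher and 1, cyclin B3, was called lower, both on the active EBF3 arrays and in the difference between the groups. This is 8.33% lower, against 2.84% and 1.44% of all probes. Their means with active EBF3 ran from -1.08 to 1.24. An unadjusted p under 0.05 (limma) was reached there by 6 of the 12 (50%), against 26.3% of all probes. In the difference between the groups it was reached by 2 (16.7%), against 13.5%.

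The 4 probes for cytoplasmic dynein, the motor that moves cargo toward minus ends, had positive means on both kinds of array. They ran from 0.30 to 0.69 with active EBF3 and from 0.31 to 0.53 with the DEX control. The counts and ranges in this paragraph include the dynein 2 EST, whose ratios are not measurements (below). Positive means held after centering, and with normexp background correction and loess for all but the dynein 2 EST on the DEX control arrays, at -0.01. Under normexp the lowest active EBF3 mean was 0.002, and the authors' value table was complete for 2 of the 4 probes. None was called, and the differences between the groups ran from -0.24 to 0.19. The light intermediate chain clone *dnclic1* was an example, at 0.10, 0.34, 0.28 and 1.27 on the active EBF3 arrays and at 0.18, 0.24, 0.20 and 0.93 on the DEX control arrays, highest in replicate 4 of each. The EST for the heavy chain of dynein 2, a motor of cilia, held surrogate values in both channels of all 8 arrays, meaning that the scanner software had put a floor in place of a signal, and its ratios are not measurements. The 2 axonemal dynein ESTs, for motor parts of beating cilia, had means of -0.20 and -0.01 on the active EBF3 arrays.

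Of the 5 probes in the neuronal list, 0 were called higher and 1 was called lower on the active EBF3 arrays, where 3.03% of all probes were called higher and 2.84% lower. Their median was -0.03, against 0 higher, 2 lower and a median of 0.11 for the 34 general probes. In the difference between the groups, the neuronal list had 0 higher, 1 lower and a median of -0.47, and the general list 0 higher, 0 lower and a median of 0.06. Of all probes, 2.42% were called higher and 1.44% lower there, with a median of -0.08. Under normexp with loess the medians of the neuronal and general lists were -0.07 and 0.04. The other neuronal markers are the neurofilament gene *nf-m*, an intermediate filament of axons (2 probes), the transcription factors *neurod* and *nscl-1*, the RNA-binding protein gene *elrC* and a plasticin clone described as peripherin, which is not the clone that the study names *peripherin*. The study listed several of these markers for their response to EBF3, so they are not independent evidence. With active EBF3, 5 of these 6 rose, with mean log2 ratios from 2.73 to 4.79. The plasticin clone was not called, and it split by array design, at 0.58 and 0.43 in replicates 1 and 2 and at -1.38 and -1.96 in replicates 3 and 4. On the same arrays the highest mean in the neuronal microtubule list was 0.74, that of *stmn3*. No test was made between the lists.

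**Figure D4:**
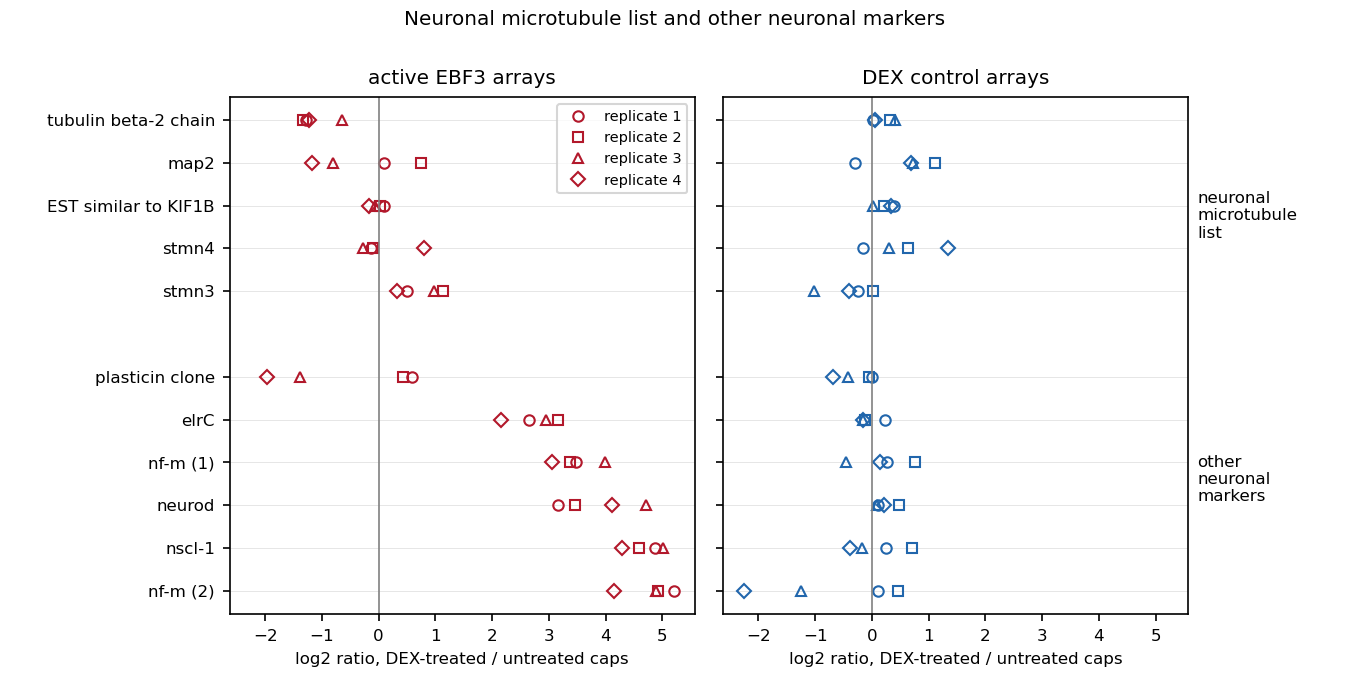
Log2 ratio of DEX-treated to untreated caps (horizontal axis) for the 5 probes of the neuronal microtubule list and for 6 other neuronal marker probes (rows), on the 4 active EBF3 arrays (left, red) and the 4 DEX control arrays (right, blue), with a symbol for each replicate. On the active EBF3 arrays 5 markers lie above 2, and no array of a neuronal microtubule probe does.

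Some kin of these genes carry array descriptions that do not name them and are known only through the gene table (17 of 19 probes) or an older clone name. Of the 19 probes, 0 were called in any comparison, and the same held for 12 probes of other microtubule genes (10 of them tested on the DEX control arrays and between the groups), such as *TPX2*, the EB1 genes, spastin and *LIS1*. Of all probes, 5.87% were called on the active EBF3 arrays, 0% on the DEX control arrays and 3.86% between the groups. Counts of 0 in lists this small are therefore not read as a result about these genes. Of the 19, *mapt* and *stmn2* are neuronal. The tau gene *mapt* was at -0.41, -0.57, 1.32 and 0.98 on the active EBF3 arrays, against -0.33, -0.34, -0.14 and -0.04 on the DEX control arrays. It was thus below 0 in both replicates of the first array design and above 0 in both of the second, and the difference between the groups was 0.54 (adjusted p = 0.745 from limma). Its Cy3 signal was well above background on 2 of 4 active EBF3 arrays. It read 191, 121, 223 and 200, where the lowest Cy3 signals marked well above background were 190, 133, 21.9 and 25.1. The negative values thus rest on a Cy3 signal near that limit. The SCG10 gene *stmn2* was at -0.03, -0.37, -0.56 and -0.77 on the active EBF3 arrays and at -0.03, -0.14, -0.26 and -0.83 on the DEX control arrays, with a difference of -0.12 (adjusted p = 0.918 from limma). Its Cy3 signal was also well above background on 2 of 4 active EBF3 arrays.

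Across all members, the groups did not overlap for 4 of 39 probes, tubulin beta-2 chain, beta-Tubulin at 56D, *stmn3* and *Xklp3* (10.3%), against 10.1% of all 21197 probes with 8 values. The 95% interval of the difference lay within 2-fold in both directions for 26 members, and reached past it for the other 13. It included 0 for 32, in the model that does not pair the arrays. The widest interval spanned 1.20 to each side and the median 0.47. These counts include the dynein 2 EST, whose ratios are not measurements. They also include every member well above background in neither channel on any active EBF3 array.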

How the data were processed

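Animal cap RNA was hybridized to 8 two-color Agilent arrays in 2 groups of 4. Of each array the authors deposited the Agilent Feature Extraction output, whose processed signals are background-corrected intensities that the software had balanced between the dyes by LOWESS. Per the file headers, replicate 1 was read with version 8.1.1.1 and the other replicates with version 9.1.3.1, the version that the submitters' processing notes name. The scanner files also hold a log10 ratio, and the authors' value table gives it with Cy3 on top and leaves some dim or non-uniform probes empty.

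In R 4.3.3, the log2 of Cy3 over Cy5 was taken for every spot and averaged over the spots of a probe, without control or non-uniform spots. The mean of each group was tested against 0, and the groups against each other, with limma 3.58.1 (lmFit, eBayes, two-sided) and Benjamini-Hochberg adjustment over 21357 probes (active EBF3), 21256 (DEX control) or 21197 (both). Intervals are 95% intervals from the same models, which do not pair same-numbered arrays. Well above background means that the software marked at least 0.5 of a probe's spots so. The number of arrays limits the precision.

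Named with values are all probes of the neuronal list, every called member, and the 10 members with the largest mean change on the active EBF3 arrays among those well above background in a channel on all 4. Other genes with values (the kin *mapt* and *stmn2*, the mitotic kinesins outside the members, and a few members used as examples) were chosen after their values were seen. The members, lists and tests were chosen with earlier results of these data known. Of the 39 members, 21 matched a name in the X. laevis v10.1 gene table. The values of 1 member, which is counted, are not reported here. Probe and gene sequences were not used here.

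Deviations from the group means correlated at 0.366 to 0.591 between same-numbered arrays over 21197 probes (which are not independent replicates), against -0.339 to 0.0483 for different numbers, so the replicate was also fitted as a block. Other alternatives were normexp background correction (offset 50) with loess, the methods' t-test, the authors' value table, centering, a filter on dim probes, no fold minimum, the array design as a block, and leaving out each replicate. The t-test compared channel signals within a group and log2 ratios between the groups. The scripts were tested on simulated arrays.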

Additional observations from a re-analysis of the deposited data

Results flagged for a closer look

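Among 78 groups of 4 arrays (39 members on the active EBF3 and on the DEX control arrays), 5 held an array whose gap to the nearest other array was a larger share of the whole range than Dixon's 95% critical value for 4 samples. Chance alone gives about 1 such group in 20.

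In active EBF3 replicate 1, *grip210* was at -0.48 while the other 3 arrays lay between -1.05 and -1.04, and the gap was 0.98 of the range. Without this array the mean of *grip210* was -1.05 and was called (adjusted p = 0.0178 from limma). Leaving out any of the other 3 gave adjusted p from 0.107 to 0.125 and no call. The other 4 flags all fell on arrays of replicate 4. Tubulin, beta 5 was at -0.82 on its DEX control array, against -0.11 to -0.01 on the others (0.888 of the range). The EST similar to mouse beta-tubulin was at -0.73 on its active EBF3 array, against 0.01 to 0.08 (0.914). *Xklp1* was at 0.54 on its active EBF3 array, against -0.09 to 0.00 (0.863). The light intermediate chain clone *dnclic1* was at 0.93 on its DEX control array, against 0.18 to 0.24 (0.925).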

How the results depend on the processing

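The 3 falls on the active EBF3 arrays and the 1 lower difference between the groups rest on 4 arrays a group and on changes close to 2-fold. Of the 3 falls, normexp background correction with loess left 1 (tubulin, beta 5). The methods' t-test on channel signals left 0, but it counts the spread of signal between arrays and cannot decide about changes within them. With no fold minimum 2 members were higher and 4 lower. Leaving out 1 replicate at a time gave 0 to 4 falls, 0 without replicate 2 or replicate 4, 1 (tubulin beta-2 chain) without replicate 3, and 4, *grip210* added, without replicate 1. For tubulin beta-2 chain the mean then ran from -1.28 to -1.05, with adjusted p from 0.0280 to 0.0890 (limma). For the DEX control arrays, leaving out a replicate gave 0 to 1 member called higher, the brighter LC3 EST without replicate 1. The shares of all probes called in these fits and those below are not given here. The counts are therefore not read as a result about the members in particular.

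In the difference between the groups, the lower call for tubulin beta-2 chain was kept by the authors' value table and by centering. The filter on dim probes and the array design block also kept it. So did the t-test, which here compared log2 ratios between the groups and not channel signals. Normexp with loess gave 0, since the change of -0.96 is under 2-fold (adjusted p = 0.0133 from limma), and leaving out a replicate gave 0 to 1, with 0 without replicate 2 (adjusted p = 0.0848 from limma) or replicate 4 (0.0540). In the other direction the main count of 0 became 1 (*stmn3*) with the authors' value table, with centering and with the array design block, and 1 (*Xklp3*) with no fold minimum.

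With the replicate block, which the pairing of the arrays allows, 1 member was called lower and 0 higher, so the block changed no call. For 14 named members, 286 further values under alternatives were computed. Of these, 282 kept the sign of the main value, and the 4 that changed sign were not called in either. A call was lost in 16 and gained in 5, among them *grip210* with centering (-1.004, adjusted p = 0.0220 from limma). Under normexp with loess the differences of *map2* and *stmn3* between the groups were -0.06 and 0.23, and the cause was not tested.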
